A study of Mus musculus with 12 samples.

Results

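Of the 9806 liver genes tested, 986 differed between Policaptil Gel Retard treated mice and vehicle treated mice in the same direction at both times of day, with p under 0.05 for a common treatment effect. The tested product is a gel-forming blend of plant fibers, which the sample labels name Libramed. The genes were found by comparing the 6 livers of treated mice with the 6 livers of control mice, with time as a factor, on log2(FPKM + 1) and among genes whose mean over the 12 livers was 1 FPKM or more. FPKM is the number of fragments relative to the length of the transcript and to the mapped reads of the library. A gene counted as shared when the differences at ZT0 and at ZT12 had the sign of the common effect. After Benjamini-Hochberg adjustment over all genes (limma), 2 of the 986 had an adjusted p under 0.05, so most of the genes described here passed the looser rule alone.

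All 12 mice were male, of a C57BL/6J background and 8 weeks old, and all were fed a high-fat diet (HFD), first for 4 weeks without and then for 2 weeks with daily gavage of the product or of drinking water. There were 3 mice in each of 4 groups: vehicle at ZT0, product at ZT0, vehicle at ZT12 and product at ZT12. Zeitgeber time (ZT) counts from the moment the lights go on, so ZT0 closes the active night of a mouse and ZT12 opens it. The labels call the 3 livers of a group biological replicates, so p-values rest on the spread between mice, and no group without HFD was part of the comparison.

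The liver makes most of the proteins of blood plasma, among them clotting factors, complement and the acute phase proteins, whose genes respond to interleukin-6 and interleukin-1. These proteins enter the endoplasmic reticulum (ER) as they are made, are folded and glycosylated there, and are then secreted. Besides hepatocytes the tissue holds sinusoidal endothelial cells, Kupffer cells and stellate cells, and in whole tissue a larger number of cells of a type cannot be told apart from more RNA per cell.

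Among the genes with lower levels, also when each time was fitted on its own, were those of fibrinogen, the precursor of fibrin clots, which is made of 3 chains encoded next to each other on chromosome 3, and Lrg1, which encodes a leucine-rich plasma glycoprotein. Their promoters are shown because all 4 genes were lower with the product at both times and encode plasma proteins known from the acute phase response. Each run covers 250 bases before to 50 after the annotated start in GRCm38.p6, from RefSeq, and reads 5′ to 3′ on the strand of the gene. Fga lies at chr3:83025903-83026202 (plus strand), Fgb at chr3:83049814-83050113 (minus strand), Fgg at chr3:83007474-83007773 (plus strand) and Lrg1 at chr17:56121897-56122196 (minus strand). Capitals mark matches, on either strand, to the letters TTCNNNGAA of STAT factors and to CTGGGAA, known from interleukin-6 response elements.
Fga: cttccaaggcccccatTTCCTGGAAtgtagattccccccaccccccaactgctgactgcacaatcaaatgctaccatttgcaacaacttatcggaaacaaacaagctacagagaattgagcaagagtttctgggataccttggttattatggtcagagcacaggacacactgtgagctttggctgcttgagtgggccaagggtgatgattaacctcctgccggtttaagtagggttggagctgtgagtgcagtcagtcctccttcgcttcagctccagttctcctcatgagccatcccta
Fgb: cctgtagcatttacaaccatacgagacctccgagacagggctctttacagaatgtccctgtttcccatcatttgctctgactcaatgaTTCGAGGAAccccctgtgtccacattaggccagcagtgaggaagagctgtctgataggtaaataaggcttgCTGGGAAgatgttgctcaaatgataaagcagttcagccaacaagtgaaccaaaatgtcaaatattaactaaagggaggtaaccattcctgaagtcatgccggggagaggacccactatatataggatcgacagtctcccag
Fgg: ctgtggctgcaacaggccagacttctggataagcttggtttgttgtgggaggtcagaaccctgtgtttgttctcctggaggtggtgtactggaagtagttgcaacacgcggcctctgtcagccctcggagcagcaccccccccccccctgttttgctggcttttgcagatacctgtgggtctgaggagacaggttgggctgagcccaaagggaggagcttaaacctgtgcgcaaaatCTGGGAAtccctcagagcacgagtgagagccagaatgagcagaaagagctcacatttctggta
Lrg1: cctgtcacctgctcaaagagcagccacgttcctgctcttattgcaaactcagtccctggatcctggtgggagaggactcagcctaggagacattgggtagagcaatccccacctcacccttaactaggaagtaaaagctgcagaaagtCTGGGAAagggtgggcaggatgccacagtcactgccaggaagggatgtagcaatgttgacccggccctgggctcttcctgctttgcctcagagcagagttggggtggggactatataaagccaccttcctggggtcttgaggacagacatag
The Fga and Fgb promoters each held 1 match to the first motif, and those of Fgb, Fgg and Lrg1 each held 1 match to the second. Of all 32851 promoters of this length, 8.3% held the first and 11.1% the second. For promoters of the genes tested the shares were 6.7% and 10.6%. The list of acute phase proteins used here, which does not hold Lrg1, had 22 promoters for the members tested, of which 6 held the first and 5 the second. Among its 14 lower genes with a promoter sequence, 5 held the first (Apcs, Fga, Fgb, Itih4 and Steap4) and 4 the second (Apcs, Fgb, Fgg and Steap4), so matches also lay in members that did not pass. The motifs do not overlap in the 4 promoters shown, and a match is a description of the letters, not of binding.

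The 986 genes were 10.1% of those tested. Of these, 374 (3.81% of all genes) were higher and 612 (6.24%) were lower in treated mice, and 5 further genes had p under 0.05 with opposite directions at the 2 times. The balance of directions depended on the scaling of the libraries. With median-ratio scaling 531 genes were higher and 429 lower, and with quantile normalization 495 and 485. After the removal of library trends along GC content and length, 493 genes lay on each side. The median effect over all genes was −0.02 in the table as deposited. By the longest annotated transcript of each gene, the genes with higher levels had shorter and more GC-rich transcripts. Their median length was 2246 bases with 53.5% GC, against 3531 bases and 47.5% GC for the genes with lower levels. For all genes tested it was 3158 bases with 49.9% GC. Lengths were known for 352, 595 and 9458 of these genes, and which transcripts were expressed is not known.

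Most of the shared differences were small. The median absolute log2 fold change of the 986 genes was 0.21, 53 genes (26 higher, 27 lower) reached 0.5 and 12 reached 1. The difference was larger at ZT0 than at ZT12 for 611 of the 986. This was not counted over all genes, and in separate fits more genes had p under 0.05 at ZT0 (905) than at ZT12 (661, limma). For 141 genes (1.44%), 49 higher and 92 lower, the 3 treated mice lay on the same side of the 3 control mice at both times without overlap, and for 58 genes they lay on opposite sides. The plot of the differences at both times shows the shared genes in the upper right and lower left fields, with a tail of lower genes drawn out along ZT0.

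**Figure D1:**
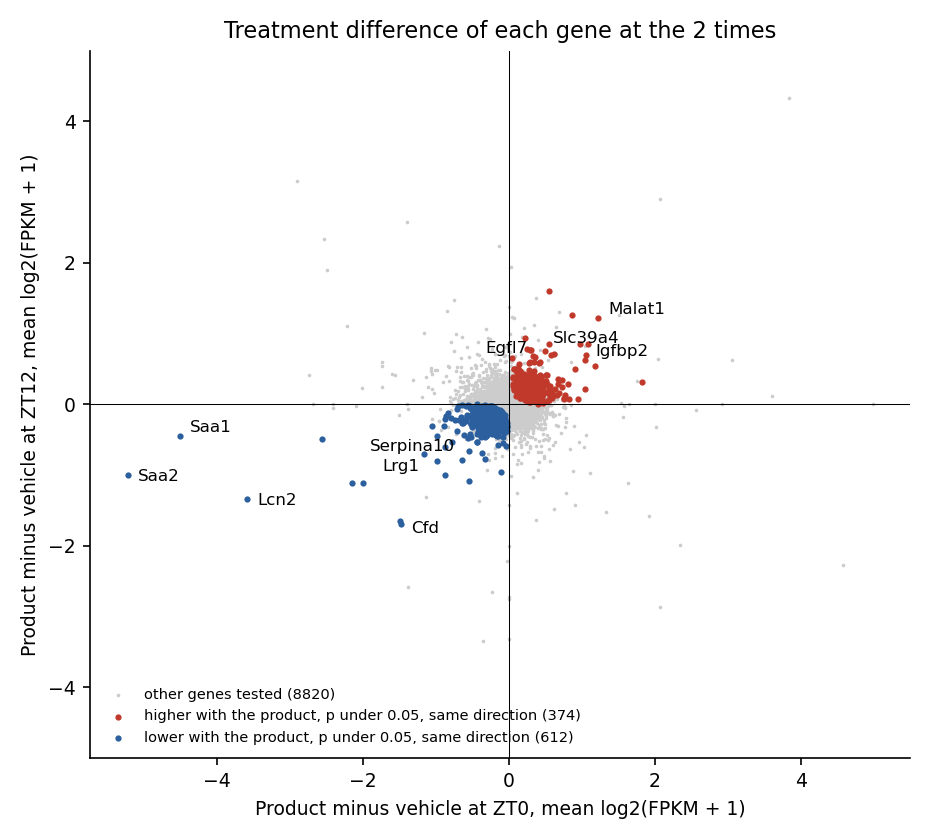
Each point is 1 of 9806 genes, placed by the product minus vehicle difference of the group means of log2(FPKM + 1) at ZT0 (horizontal) and at ZT12 (vertical), 3 mice per group. The 374 red and 612 blue points are genes with p under 0.05 and 1 direction, which by that rule lie at the upper right and the lower left. Saa1, Saa2 and Lcn2 lie far to the left, with smaller differences at ZT12.

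Fitting each time on its own gave fewer shared genes. At ZT0, 905 genes (9.23%) had p under 0.05 and 508 of them (56.1%) had the same sign at ZT12. At ZT12, 661 genes (6.74%) had p under 0.05 and 406 (61.4%) had the same sign at ZT0. Over all genes tested, 55.1% had the same sign at both times. In the separate fits 51 genes (0.52%; 23 higher and 28 lower) passed at both times with the same direction, and 23 passed with opposite directions. A difference between the times in the treatment effect had p under 0.05 for 650 genes (6.63%), 59 of them among the 986, and none had an adjusted p under 0.05 (limma, smallest adjusted p 0.337).

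The first gene that passed the adjustment was Slc39a4 (chr15:76612383-76617384, mm10, minus strand), which encodes ZIP4, an importer of zinc at the plasma membrane. Its level in the 3 control mice at ZT0 was 14.2, 15.1 and 16.5 FPKM, against 18.7, 25.4 and 21.8 FPKM with the product. At ZT12 it was 11.97, 10.7 and 11.4 FPKM in control mice and 20.5, 17.9 and 21.1 FPKM in treated mice. Every treated mouse lay above every control mouse, also across times. The common log2 fold change was 0.62 ± 0.084 (SE, n = 6 against 6), with 0.49 at ZT0 and 0.75 at ZT12 and an adjusted p of 0.0432 (limma). The test of a difference between the times missed the threshold, with a difference of 0.26 and a 95% interval from −0.08 to 0.60.

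The second was Serpina10 (chr12:103614786-103631444, mm10, minus strand), which encodes a plasma inhibitor of coagulation factor Xa that works together with protein Z. Control mice had 223, 246 and 231 FPKM at ZT0 and 189, 184 and 229 FPKM at ZT12. Treated mice had 158, 169 and 156 FPKM at ZT0 and 141, 157 and 148 FPKM at ZT12. All 6 treated mice were below all 6 control mice. The common log2 fold change was −0.48 ± 0.065 (SE), with −0.53 at ZT0, −0.42 at ZT12 and an adjusted p of 0.0432 (limma). These were 0.0204% of the genes tested, and both adjusted values were above 0.05 under most other settings (for Slc39a4 and Serpina10, 0.0526 each with median-ratio scaling, 0.0840 and 0.728 with a Cyber-T style test, 0.340 each with a replicate block within each time and 0.193 each without product ZT0 replicate 3). For both genes the exact permutation test within times gave p = 0.005, two-sided, the smallest value that its 400 arrangements allow. Any gene whose groups do not overlap at either time, in the same direction, gets this value. The exact p thus restates the lack of overlap and is no further support.

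The genes just outside the adjusted threshold were Egfl7 (adjusted p 0.0750) and Fgg (adjusted p 0.122). Exact p was 0.005 for each of them as well, which again follows from the lack of overlap at both times.

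**Figure D2:**
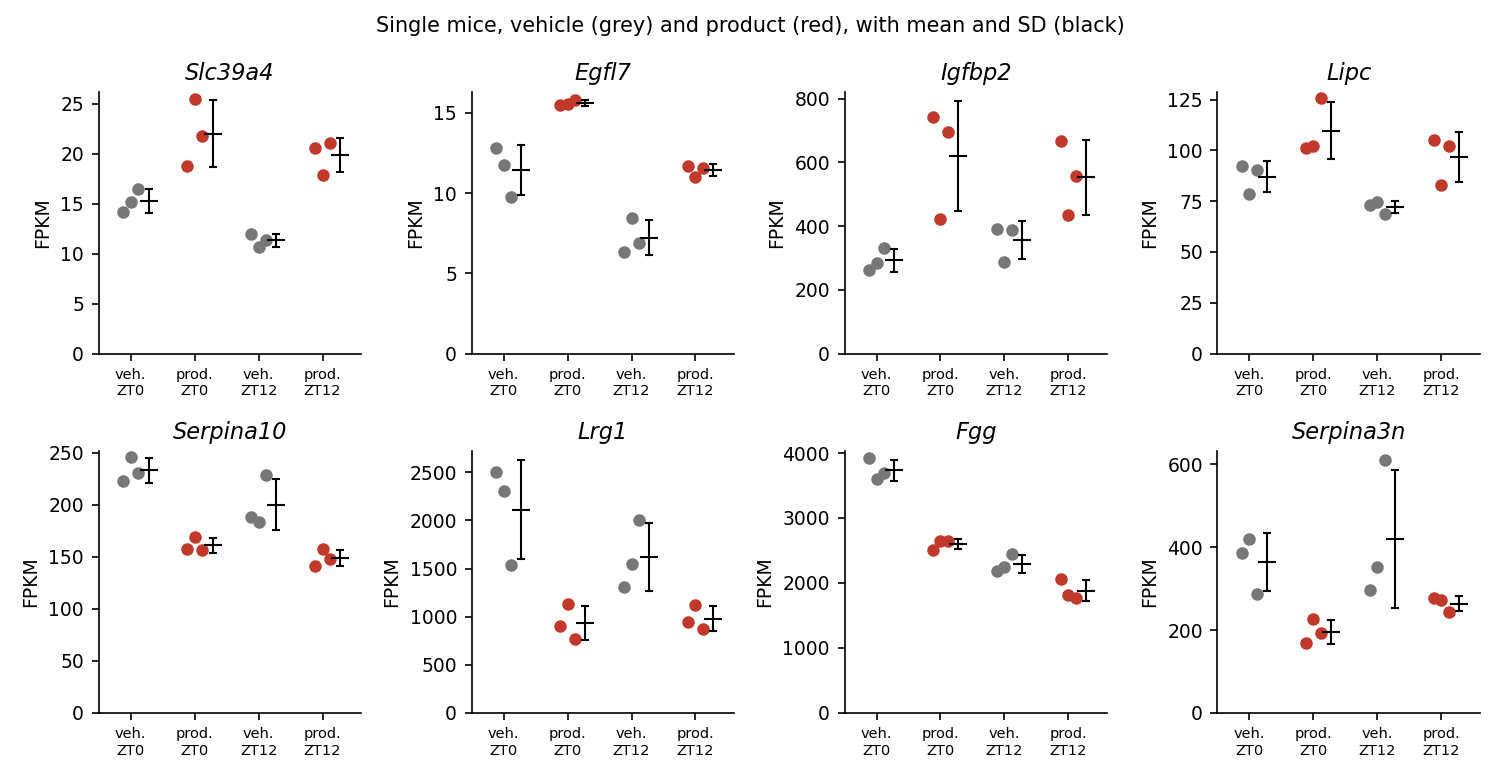
FPKM (vertical, from 0) of 8 genes in single mice of the 4 groups, vehicle in grey and product in red, with the mean and SD of 3 mice in black. Treated and control mice do not overlap at either time for any of these genes; the upper row is higher and the lower row lower with the product.

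Of the gene lists examined, that of acute phase proteins held the most lower genes. Of 26 measured members 17 were lower, with p under 0.05 for the common effect and a negative difference at each time, and none was higher, against 6.24% lower among all genes, and none passed the adjustment. The median log2 fold change of the 26 was −0.45, with −0.72 at ZT0 and −0.28 at ZT12. The median over all genes and both times was −0.02. The count was 17 with median-ratio scaling and 16 with quantile normalization, and fell to 13 without vehicle ZT12 replicate 3 or without product ZT12 replicate 3.

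The 3 fibrinogen genes were lower at both times without overlap. Fgg (chr3:83007724-83015049) had between 3603 and 3918 FPKM in control mice at ZT0 and between 2511 and 2650 FPKM in treated mice. At ZT12 the ranges were 2190 to 2448 FPKM and 1765 to 2062 FPKM. The 2 treatments did not overlap at either time, and treated mice at ZT0 were above control mice at ZT12. The common log2 fold change was −0.40 ± 0.068 (SE) for Fgg, −0.40 ± 0.069 for Fga (chr3:83026076-83033627) and −0.29 ± 0.066 for Fgb (chr3:83040141-83049863), with adjusted p of 0.122, 0.122 and 0.259 (limma). Summed over the 3 chains, the level was 9528 ± 247 FPKM (SD, n = 3) with vehicle and 7012 ± 309 FPKM with the product at ZT0, and 6335 ± 474 and 5232 ± 345 FPKM at ZT12. Exons of Fgg overlap those of the antisense gene Gm30097, and since the sources differ on whether the libraries kept the strand, the 2 cannot be told apart.

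Lrg1, which is not on the list, had the largest shared decrease among the genes without overlap. Control mice had 2501, 2307 and 1532 FPKM at ZT0, and 1304, 1545 and 2003 FPKM at ZT12. Treated mice had 901, 1128 and 771 FPKM at ZT0, and 948, 1120 and 869 FPKM at ZT12. All 6 treated mice lay below all 6 control mice, and the log2 fold change was −0.94 ± 0.16 (SE; −1.16 at ZT0 and −0.71 at ZT12; adjusted p 0.122, limma). Serpina3n, a secreted inhibitor of serine proteases, had a log2 fold change of −0.74 ± 0.16 (SE), with 287 to 420 FPKM against 170 to 227 FPKM at ZT0, and 297 to 610 FPKM against 243 to 276 FPKM at ZT12.

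The members with the largest fold changes were less alike at the 2 times. Saa2 and Saa1, serum amyloid A proteins with nearly identical sequences whose reads may not be told apart, had common log2 fold changes of −3.11 ± 1.1 and −2.48 ± 0.86 (SE). At ZT0 Saa1 had between 3252 and 9291 FPKM in control mice and between 140 and 593 FPKM in treated mice. At ZT12 it had 1116, 5588 and 9336 FPKM in control mice and 2460, 9887 and 942 FPKM in treated mice. The groups were far apart at ZT0 and overlapped completely at ZT12, where 1 treated mouse had the highest value of all. Lcn2, lipocalin 2, which binds bacterial iron carriers, overlapped at ZT12 as well, with 33.8, 239 and 407 FPKM against 63.3, 139 and 22.6 FPKM, and had −3.59 at ZT0 and −1.34 at ZT12.

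Of the other carriers and inhibitors, hemopexin (Hpx, −0.54), which binds heme, haptoglobin (Hp, −0.37), which binds free hemoglobin, orosomucoid 1 (Orm1, −0.68) and Lbp (−0.49), which binds bacterial lipopolysaccharide, had p under 0.05. Members that did not pass were Crp (−0.13), hepcidin (Hamp, −0.26) and the metallothioneins Mt1 (−0.60) and Mt2 (−0.69), whose spread was large. The other hepcidin gene, Hamp2, is not on the list and was higher (1.08 ± 0.48, SE, adjusted p 0.479, limma). It had 37.4 to 88.8 FPKM with vehicle and 155 to 261 FPKM with the product at ZT12, and overlapping values at ZT0. The 26 genes together held 6.18% ± 1.0 (SD, n = 3) of all FPKM in control mice and 3.37% ± 0.55 in treated mice at ZT0, without overlap. At ZT12 they held 5.98% ± 1.9 and 4.54% ± 1.7, with overlap.

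**Figure D3:**
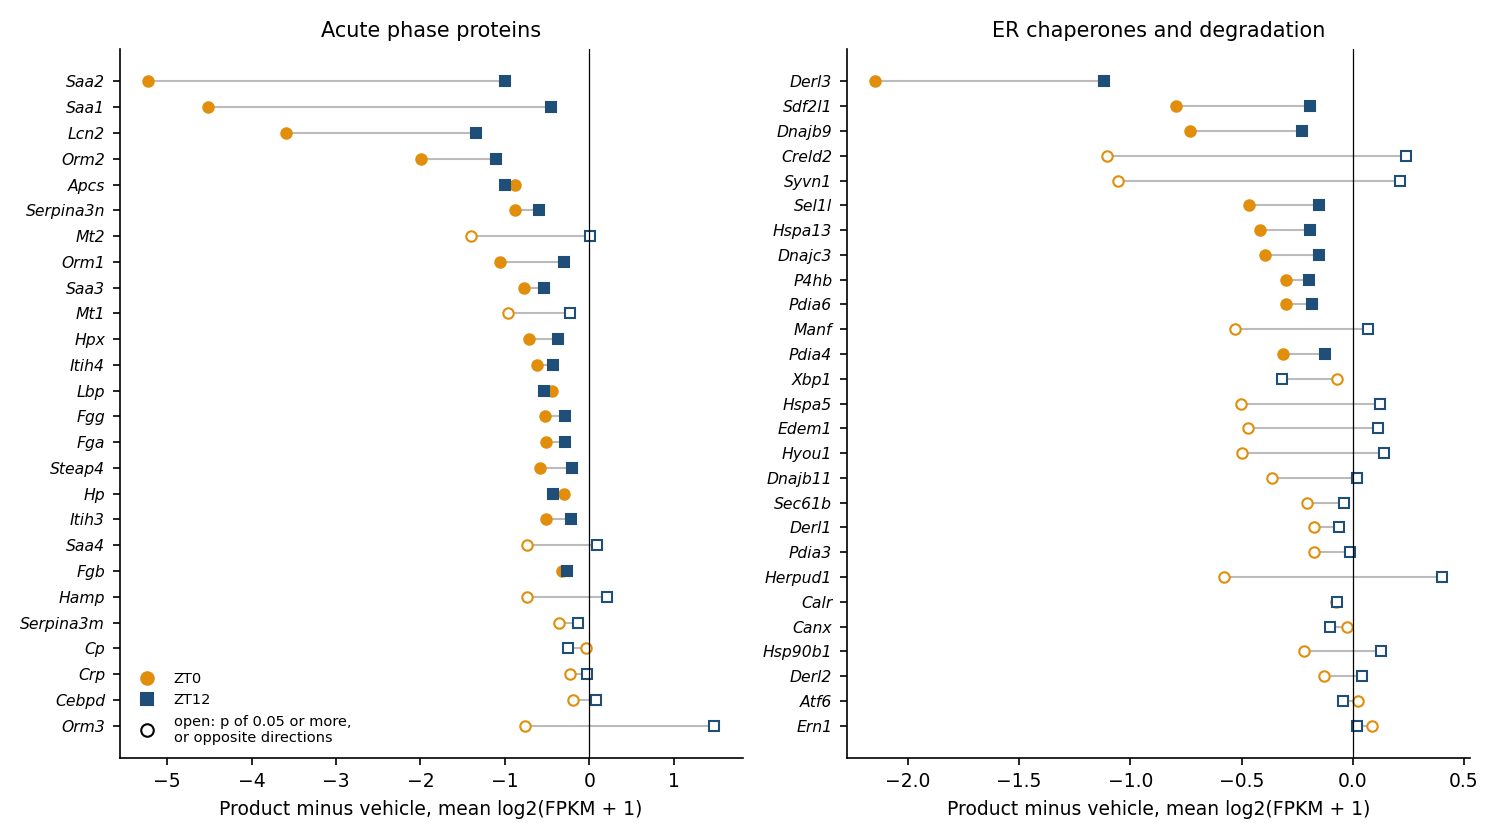
Product minus vehicle difference in mean log2(FPKM + 1) at ZT0 (circles) and ZT12 (squares) for 26 acute phase genes and 27 genes of ER chaperones and degradation, filled where p was under 0.05 with 1 direction. The 17 and 9 filled genes lie left of 0 at both times, and most circles lie further left than their squares.

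A list of interleukin-6 and interleukin-1 signalling genes (receptors, kinases, STAT factors and some targets) was drawn up after the values were seen. Of 24 measured, 2 were lower and none was higher (6.24% and 3.81% over all genes), with a median of −0.07. The lower ones were the kinase gene Irak1 (listed together with 2 microRNAs, −0.14) and Lrg1. Lrg1 encodes a secreted target and is not itself a part of this signalling chain. Stat3, which carries the interleukin-6 signal to the nucleus, had −0.23 ± 0.11 (SE, adjusted p 0.502, limma), with −0.44 at ZT0 and −0.01 at ZT12. Of 7 measured markers of Kupffer cells and macrophages, 1 was lower (Vsig4, −0.42), beside 6.24% over all genes, and the median was −0.24. With single libraries left out 0 to 5 of the 7 were lower, 5 of them without vehicle ZT12 replicate 3, and Vsig4 lost p under 0.05 in 9 of the 12 cases. The median then ranged from −0.43 to −0.11. Their summed level was 58.0 to 66.7 FPKM with vehicle and 36.8 to 57.9 FPKM with the product at ZT0, but 30.1 to 73.4 and 35.5 to 58.2 FPKM at ZT12. Emr1, which defines these cells, was listed at 0 in all mice. The part of these cells in the acute phase result was not tested.

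The counts of the lists that follow stand beside 3.81% higher and 6.24% lower genes over all genes tested. Among complement components, which tag and lyse microbes, 6 of 24 measured were lower, none was higher and the median was −0.18. C8a, a chain of the membrane attack complex, had −0.33 ± 0.084 (SE), with 199 to 286 FPKM with vehicle and 196 to 198 FPKM with the product at ZT0, and 229 to 257 FPKM and 178 to 211 FPKM at ZT12. C4bp (−0.21), a brake on complement activation, and Serping1 (−0.28), the inhibitor of its first enzymes, were also lower. C3 itself had −0.24 ± 0.13 (SE, adjusted p 0.566, limma). With quantile normalization 5 components were lower, and with median-ratio scaling 4 were lower and 1 was higher.

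In a list of 30 coagulation and fibrinolysis genes, drawn up after the values were seen, changes went both ways. The 6 lower ones were Serpina10, the 3 fibrinogen chains, Serping1 and Cpb2, a carboxypeptidase that slows the breakdown of fibrin. Cpb2 had 287 to 336 FPKM against 225 to 229 FPKM at ZT0, and 287 to 335 FPKM against 252 to 284 FPKM at ZT12, a log2 fold change of −0.33 ± 0.068 (SE). Klkb1, prekallikrein, was higher by 0.35 ± 0.078 (SE), and so was Proc, protein C, by 0.18 ± 0.063 (SE). The median of the 30 was −0.02. Prothrombin (F2, 0.02), plasminogen (Plg, 0.01) and factor XII (F12, −0.01) had p above 0.7.

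Some genes of the machinery that folds secreted proteins were lower as well. Of 27 genes of ER chaperones and degradation, 9 were lower (6.24% over all genes) and none was higher, with a median of −0.19 over both times, −0.36 at ZT0 and −0.05 at ZT12. P4hb, a protein disulfide isomerase, had 1002 to 1133 FPKM with vehicle and 840 to 900 FPKM with the product at ZT0, and 836 to 928 FPKM and 719 to 804 FPKM at ZT12. The groups did not overlap, and the log2 fold change was −0.25 ± 0.057 (SE). Sel1l (−0.31), a scaffold for the removal of misfolded proteins, Dnajb9 (−0.48) and Dnajc3 (−0.27), partners of the chaperone BiP, and Derl3 (−1.63) passed too. BiP itself (Hspa5) had −0.50 at ZT0 and 0.12 at ZT12, and Herpud1 −0.58 and 0.40, so neither was shared. The number of lower genes was 15 without product ZT12 replicate 3 and 4 with the Cyber-T style test.

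Of 66 genes of protein entry into the ER and of N-glycosylation, listed after the values were seen, 11 were lower and 1 was higher (6.24% and 3.81% over all genes), with a median of −0.09. Emc3, a subunit of the complex that inserts membrane proteins, was at 30.6 to 32.7 FPKM against 26.2 to 27.5 FPKM at ZT0 and at 28.3 to 30.5 FPKM against 26.0 to 26.6 FPKM at ZT12. This difference, −0.19 ± 0.044 (SE), was small but left no overlap at either time. Sec11c (−0.27), which cuts off signal peptides, Ssr4 (−0.29) of the translocon and Stt3b (−0.23), which transfers the sugar chain, also were lower, and Emc9 was higher by 0.26. Qsox1, an oxidase that forms disulfide bonds, had −0.34 ± 0.076 (SE).

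Zinc transporters went in both directions. In a list of 16 measured, drawn up after the values were seen, Slc39a4 was higher and 7 were lower (3.81% and 6.24% over all genes), with a median of −0.12. Slc30a5, which moves zinc into the secretory pathway, had 17.4 to 21.0 FPKM with vehicle and 12.1 to 14.2 FPKM with the product at ZT0, and 10.7 to 11.2 FPKM and 9.21 to 10.3 FPKM at ZT12. The groups did not overlap at either time. The log2 fold change was −0.52 at ZT0 and −0.16 at ZT12, with a difference between the times of 0.37 with a 95% interval from 0.10 to 0.63, which excludes 0 before adjustment (adjusted p 0.614, limma). Slc39a14, the zinc and iron importer ZIP14, had −0.26 ± 0.075 (SE), and Slc39a11, Slc30a4, Slc39a9, Slc39a13 and Slc39a1 had values from −0.20 to −0.14. With either scaling 5 were lower, and without product ZT0 replicate 1 there were 4. The exporter Slc30a1 (0.11) did not pass.

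**Figure D4:**
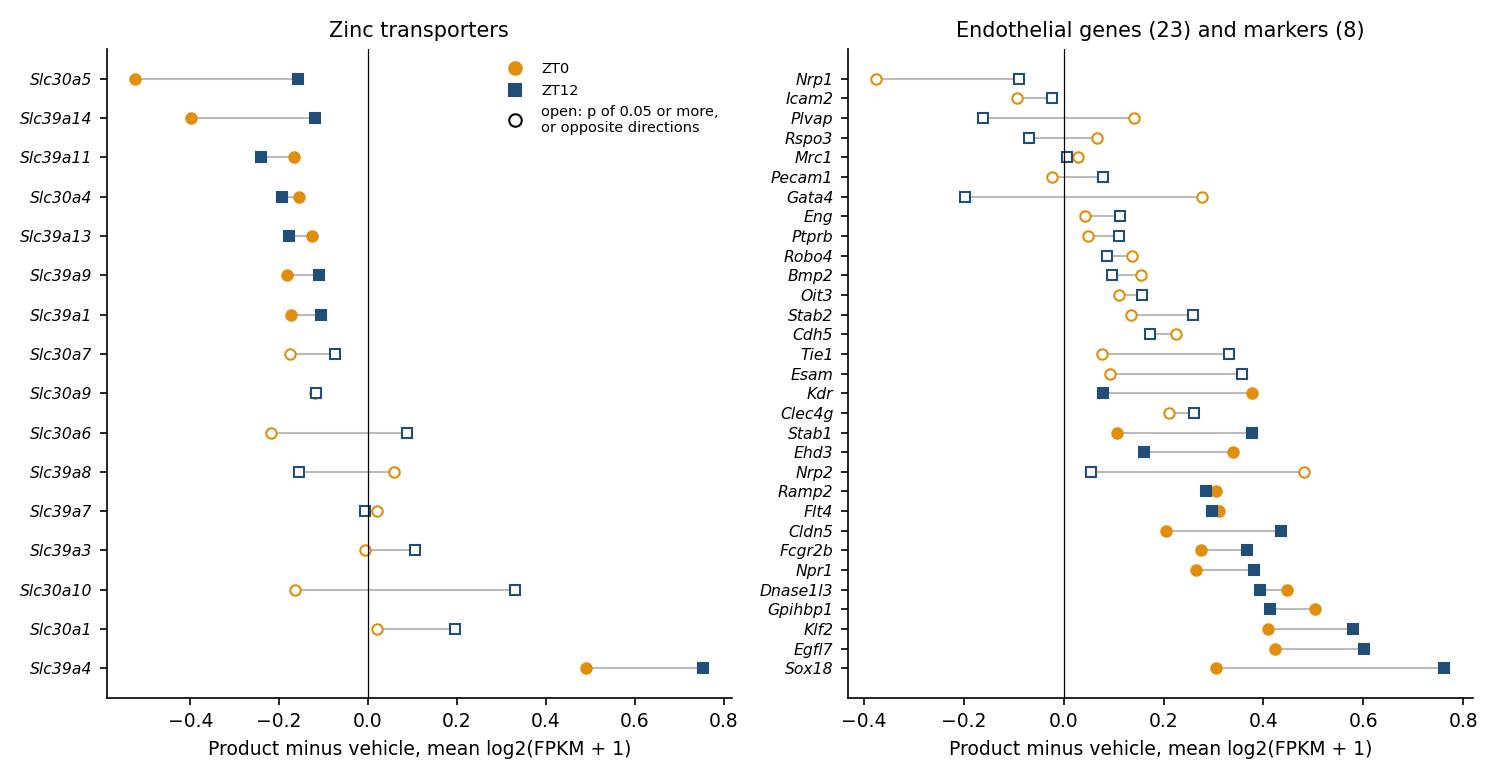
Product minus vehicle difference in mean log2(FPKM + 1) at ZT0 (circles) and ZT12 (squares) for 16 zinc transporters and for 31 genes of endothelial cells, filled where p was under 0.05 with 1 direction. Slc39a4 lies alone on the right among the filled zinc transporters, and the 13 filled endothelial genes lie right of 0 at both times.

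Genes of endothelial cells were among those with higher levels. Of 23 measured genes, listed after the values were seen, 11 were higher and none was lower, against 3.81% higher among all genes, and the median was 0.25 (0.26 at ZT0 and 0.28 at ZT12), beside −0.02 over all genes. The number was 12 with either scaling and ranged from 7, without vehicle ZT0 replicate 3, to 12 with single libraries left out. Egfl7 (chr2:26580014-26593120, mm10, plus strand), a factor that endothelial cells secrete, had 12.8, 11.8 and 9.77 FPKM in control mice at ZT0, against 15.5, 15.6 and 15.8 FPKM in treated mice. At ZT12 the control mice had 6.32, 8.45 and 6.92 FPKM and the treated mice 11.7, 10.99 and 11.6 FPKM. The treated mice were above the controls of their own time, and the difference was 0.51 ± 0.078 (SE). The exons of Egfl7 overlap those of Gm20532 and, on the other strand, of Agpat2.

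Gpihbp1, which holds lipoprotein lipase on capillaries, had a log2 fold change of 0.46 ± 0.12 (SE), with 11.2 to 13.3 FPKM against 16.3 to 20.9 FPKM at ZT0 and 5.65 to 10.99 FPKM against 11.0015 to 11.3 FPKM at ZT12. The latter ranges all but touched. The transcription factors Klf2 (0.49) and Sox18 (0.53), the natriuretic peptide receptor Npr1 (0.32) and the secreted nuclease Dnase1l3 (0.42) were also higher, all at levels under 6 FPKM. The 8 measured markers of endothelial cells all had positive values with a median of 0.20, and 2 of them, Kdr (0.23) and Stab1 (0.24), passed. Their summed level was 42.8 to 53.7 FPKM with vehicle and 51.1 to 62.3 FPKM with the product at ZT0, and 24.2 to 35.2 and 34.4 to 37.5 FPKM at ZT12, and thus overlapped at both times. Pecam1 (0.03) and Plvap (−0.01) had p above 0.7. The hemoglobin entry Hba-a1,Hba-a2, which joins near-identical copies, was higher too, by 0.87 ± 0.25 (SE), and the other red cell markers had 0.68 (Hbb-b2), 0.48 (Hbb-b1,Hbb-bs) and −0.08 (Alas2), with a median of 0.58 over the 4. What part blood left in the tissue had in the endothelial result was not tested.

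The largest shared increase without overlap, apart from hemoglobin, was that of Igfbp2 (chr1:72824503-72852474, mm10, plus strand), which encodes a circulating binding protein of insulin-like growth factors. Control mice had 262, 286 and 333 FPKM at ZT0 and 392.4, 288 and 389 FPKM at ZT12. Treated mice had 744, 421 and 697 FPKM at ZT0 and 669, 435 and 557 FPKM at ZT12. All 6 treated mice were above all 6 control mice, with a log2 fold change of 0.83 ± 0.16 (SE; 1.04 at ZT0 and 0.63 at ZT12; adjusted p 0.215, limma). Of the 13 measured genes of the IGF axis it was the one that passed.

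Changes among genes of fat storage went both ways. The differences had the same direction at both times for 17 of the 24 measured, beside 55.1% of all genes tested. Of 24 measured, 3 were lower (Mogat1, an acyltransferase of triglyceride synthesis, −0.61 ± 0.15; Cidec, which enlarges lipid droplets, −0.39 ± 0.15; Fitm2, needed for droplet formation, −0.38 ± 0.17; all SE) and the droplet coat gene Plin3 was higher (0.24 ± 0.078, SE). With single libraries left out 1 to 5 were lower, 1 without vehicle ZT12 replicate 3 and 5 without product ZT0 replicate 2. Fitm2 lost p under 0.05 in 8 of 12 cases and Cidec in 2. At ZT12 Mogat1 stood at 2.20, 1.68 and 2.29 FPKM in control mice, against 0.806, 1.11 and 0.856 FPKM in treated mice, without overlap, while at ZT0 the groups overlapped. Cd36, a fatty acid importer, had −0.47 ± 0.25 (SE, adjusted p 0.545), and Pparg, the receptor that drives fat storage genes, had −0.11 ± 0.21 (SE, adjusted p 0.881), with 0.37 at ZT0 and −0.59 at ZT12 (limma).

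Fatty acid synthesis had 1 gene past the looser rule, and from 0 to 5 with single libraries left out (5 without product ZT12 replicate 3). All 17 measured genes had positive values, with a median of 0.33 (0.21 at ZT0, 0.51 at ZT12) that ranged from 0.16 without vehicle ZT0 replicate 2 to 0.52 without product ZT12 replicate 3, but 1 of them, Srebf1, the sterol-regulatory factor of lipogenesis, had p under 0.05 (0.58 ± 0.26, SE), and it lost this when any of 7 single libraries was left out. Fasn, fatty acid synthase, had 0.93 ± 0.44 (SE, adjusted p 0.499, limma), with 25.0, 90.1 and 50.6 FPKM against 267, 142 and 70.7 FPKM at ZT12. Cholesterol synthesis had 23 of 25 common effects above 0 and a median of 0.18, with none of its genes past p 0.05. The median was 0.33 at ZT0 and −0.005 at ZT12, and 12 of the 25 had the same direction at both times. The common median ranged from 0.002 without vehicle ZT0 replicate 2 to 0.33 without product ZT12 replicate 3.

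Among lipoprotein genes, Lipc, hepatic lipase, was higher at both times without overlap, with 78.3 to 92.4 FPKM against 101.01 to 126 FPKM at ZT0 and 68.9 to 74.6 FPKM against 82.8 to 105 FPKM at ZT12 (0.37 ± 0.080, SE). Apoa1, the main protein of HDL, had 0.29 ± 0.082 and Apoe 0.19 ± 0.071, while Apob, the protein of VLDL, had −0.21 ± 0.069 (SE). Fabp1, the fatty acid binding protein of hepatocytes and 1 of the most abundant transcripts, was higher by 0.42 ± 0.098 (SE), with 0.63 at ZT0 and 0.22 at ZT12. The 10 most abundant genes held a median of 24.9% of all FPKM with vehicle and 26.9% with the product. FPKM is relative to the mapped reads of the library, to which these genes contribute.

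Amino acid catabolism had 5 of 40 genes higher (3.81% over all genes) and none lower, with a median of 0.06. They included Ass1 of the urea cycle (0.53 ± 0.18, SE) and Agxt (0.42 ± 0.14, SE), which detoxifies glyoxylate. The nuclear genes of the respiratory chain had 6 of 51 higher and none lower, beside the same share, with values from 0.15 (Ndufb9) to 0.29 (Ndufb10) and a median of 0.06. With either scaling 8 of 40 and 8 of 51 were higher. Without vehicle ZT0 replicate 2 each list had 2 higher genes, and at most 11 were higher without vehicle ZT0 replicate 1 (amino acids) or product ZT0 replicate 2 (respiratory chain). Uqcrb (0.23 ± 0.060, SE), a subunit of complex III, had the smallest p of the latter. Lists with at most 3 genes in either direction were those of fatty acid oxidation (1 higher, 2 lower of 31), bile acids (2, 0 of 25), gluconeogenesis (2, 1 of 24), glycogen (0, 0 of 16), insulin signalling (0, 1 of 20), glucocorticoid response (1, 1 of 21), the ATF4 response (0, 0 of 16), heat shock (1, 0 of 16), the clock (0, 2 of 21), Cyp2 (1, 1 of 26), Cyp1 and Cyp3 (2, 1 of 14), glutathione (2, 0 of 28), interferon-stimulated genes (1, 1 of 30), MHC (2, 0 of 16) and ribosomal proteins (1, 2 of 48). Of cell type markers, 2 were higher and 1 lower of 9 for hepatocytes, 1 higher of 10 for stellate cells, 1 lower of 5 for bile duct cells, 1 higher and 1 lower of 3 for adipocytes and 1 higher of 2 for neutrophils. The neutrophil markers S100a8 (0.92) and S100a9 (0.86) had a median of 0.89 at mean levels of 2.72 and 2.43 FPKM, and Ly6g was listed at 0. S100a8 lost p under 0.05 in 6 of 12 cases with a library left out. Prtn3, a protease of neutrophil granules that is not on the list, went the other way (−1.53 ± 0.56, SE, adjusted p 0.407, limma). It had −2.57 at ZT0, without overlap, and −0.49 at ZT12, with overlap.

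**Figure D5:**
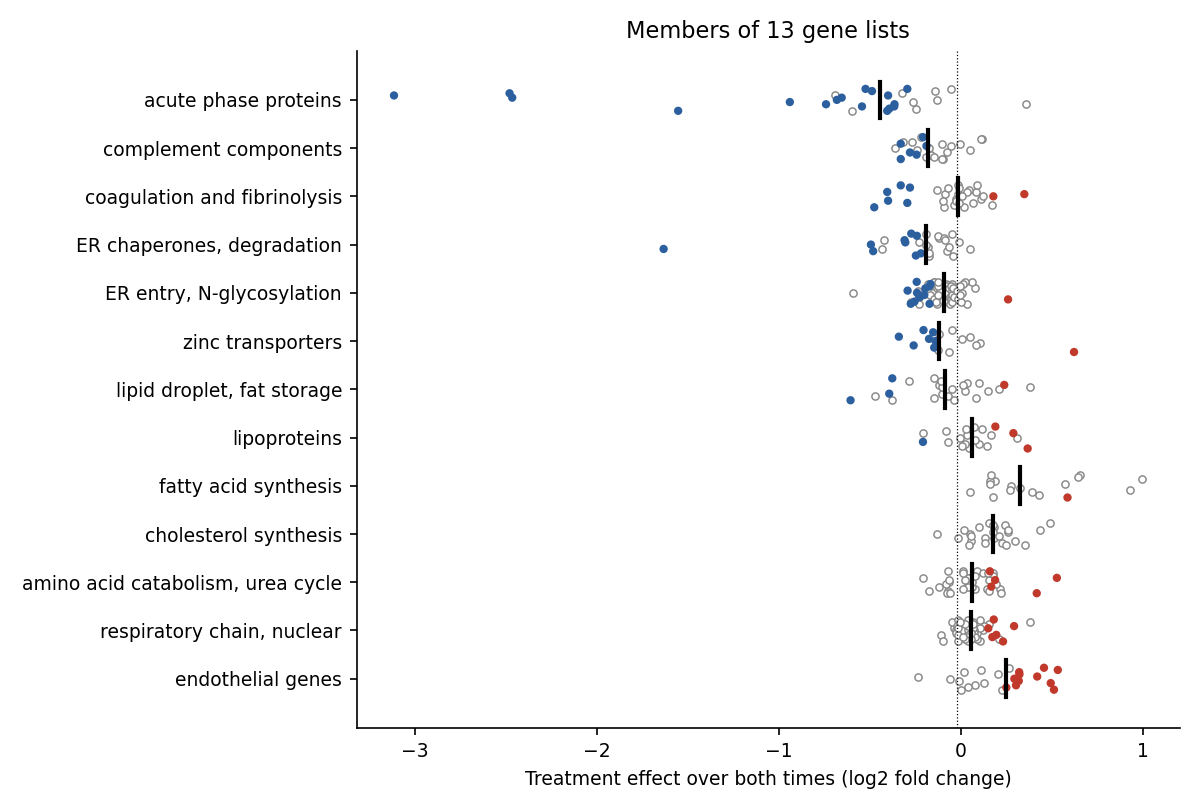
Common log2 fold change (horizontal) of each measured member of 13 gene lists, red or blue where p was under 0.05 with 1 direction and open otherwise, with the list median as a black bar and the median of all genes, −0.02, as a dotted line. The acute phase median lies at −0.45, and that of the endothelial list drawn up after the values were seen at 0.25. Cholesterol synthesis has a median of 0.18 without a filled point.

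The libraries were alike in depth and content with few exceptions. Depth relative to the first vehicle library, estimated from the spacing of low values, was 0.948 to 1.26 with vehicle and 0.703 to 1.25 with the product, and absolute depth is unknown. The first principal component (33.0% of variance) separated the times. Hepatocyte markers summed to 47883 to 54339 FPKM with vehicle and 51145 to 63892 FPKM with the product, although albumin (Alb) was listed at 0 throughout. Markers of skeletal muscle summed to 60.7 FPKM in product ZT12 replicate 3 and to at most 1.60 FPKM elsewhere. Without that library 1145 genes passed the looser rule and 0 the adjusted one (limma). The nuclear RNA Malat1, chosen after its values were seen, was high in replicate 2 of both treated groups. Its level there was 173 and 164 FPKM, against 14.7 to 70.1 FPKM in the other libraries. Malat1 was itself 1 of the 986 genes, with the highest common log2 fold change among them (1.22 ± 0.41, SE, adjusted p 0.377, limma). Its groups overlapped at ZT0 but not at ZT12. Without replicate 2 of product ZT0 and of product ZT12 in turn, 989 and 908 genes passed the looser rule. In each case 17 acute phase genes were lower.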

How the data were processed

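Liver RNA of 12 mice was sequenced, 3 in each of 4 groups assigned from the labels. The authors aligned reads to mm10 and deposited 1 table of FPKM per gene, which the methods call RPKM. The methods name ELAND, unique alignments and a stranded kit, while the submitters' processing notes and labels name TopHat, Cuffnorm and TruSeq v2, so strand is uncertain. Of 24138 lines, 289 repeated a symbol, of which the line of highest mean entered the analysis. Of the 9806 symbols tested, 185 name several genes.

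Values were analysed as log2(FPKM + 1), which understates changes of low genes, with limma 3.58.1 (R 4.3.3; moderated variances following mean expression), two-sided, with time and treatment as terms, or their interaction, and Benjamini-Hochberg adjustment. The methods' own test was a Cyber t-test within each time. The members and lists were chosen with earlier results of these data known, and 5 lists after their values were seen. Lists were counted, not tested. Named genes were the 12 highest and 12 lowest (those past the adjustment, then those without overlap at both times and p under 0.05), the 10 smallest p, up to 4 members per list, the qRT-PCR genes Igfbp2, Pparg, Cd36 and Cidec, 2 genes on each side of the adjusted threshold and the 4 smallest interaction p. Others were named after their values were seen. Coordinates are from GENCODE vM21 (mm10). The calculations were tested on simulated data. Alternatives were another pseudocount, other minimum levels, no trend, 2 scalings, a replicate block, 4 group means, a Cyber-T style test, a minimum fold change, separate fits and each library left out. The removal of GC and length trends was chosen after seeing the data.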

Additional observations from a re-analysis of the deposited data

Results flagged for a closer look

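For 3 of the 4 genes with the smallest p for a difference between the times, all treated mice lay on one side of the control mice at ZT0 and on the other side at ZT12. None of the 4 had an adjusted interaction p under 0.05 (limma, 0.337 for each). Cyp2c67, a cytochrome P450 of a family with near-identical copies, was higher with the product at ZT0 (51.3 to 83.7 FPKM with vehicle and 105 to 147 FPKM with the product) and lower at ZT12 (79.2 to 106 FPKM and 62.2 to 74.4 FPKM), a difference between the times of −1.49 on the log2 scale. Sgms2, a sphingomyelin synthase, was higher at ZT0 (6.04 to 6.54 FPKM and 8.98 to 9.47 FPKM) and lower at ZT12 (4.27 to 5.62 FPKM and 4.05 to 4.13 FPKM), a difference of −0.75. Slc25a51, a mitochondrial carrier of NAD, was lower at ZT0 (11.7 to 14.7 FPKM and 7.56 to 8.63 FPKM) and higher at ZT12 (up to 20.7 FPKM with vehicle and from 21.1 FPKM with the product), a difference of 1.11. With 3 mice per group, no outlier could be tested.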

How the results depend on the processing

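The number of genes past the adjustment (limma, 2) was also 2 with a pseudocount of 0.1 and without the variance trend, and 3 with a minimum mean of 5 FPKM, where 390 genes were lower under the looser rule. Without a minimum mean it was 1 gene, Npm2, which is not among those tested above (583 higher under the looser rule), and the pair had an adjusted p of 0.0560. With an absolute log2 fold change of at least 0.5 it was 1. It was 0 with median-ratio scaling (960 under the looser rule), quantile normalization (980), 4 group means (971), GC and length trends removed (986) and the Cyber-T style test. The latter left 388 genes under the looser rule (177 higher, 211 lower), a minimum change of 0.5 left 53 (26 and 27) and separate fits left 51 (23 and 28). With each library left out in turn, 0 to 1 genes passed the adjustment, and 693 to 1145 passed the looser rule (271 to 437 higher, 422 to 758 lower). Slc39a4 was the 1 gene that passed, without product ZT0 replicate 1. The cause of these changes was not tested.

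The 24 genes named for the highest and lowest effects kept p under 0.05 and their direction under each alternative fit of the common effect. The separate fits and the minimum fold change were not part of this check. Not all of the 24 passed at both times in separate fits, and some, such as Cpb2 (−0.33), were under a change of 0.5. Effects close to 0 changed sign: with single libraries left out, Fabp2 was −0.12 to 0.024 (the latter without product ZT12 replicate 2) and Pparg −0.29 to 0.010. Pparg was above 0 without vehicle ZT12 replicate 1 (0.0031) and without product ZT12 replicate 1 (0.010).

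Replicate numbers did not pair the samples, since the correlation of the deviations of same-numbered mice from their group means was −0.28 to 0.05 over 6 pairs. With the replicate number as a block, 0 genes passed the adjustment and 1018 the looser rule, and with the block within each time 0 and 924.

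Groups of 3 mice and an unknown absolute depth limit the precision, and counting error could not be computed from FPKM.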

Other observations

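Of the larger changes not described so far, 3 lower genes for secreted proteins are given here as examples, and there were others. Fgl1, hepassocin, a fibrinogen-like protein, had a common log2 fold change of −0.90 ± 0.24 (SE), with 920 to 1052 FPKM with vehicle and 353 to 726 FPKM with the product at ZT0, and overlapping values at ZT12 (698 to 1408 and 382 to 928 FPKM). Prg4, a lubricating proteoglycan, had −0.72 ± 0.16 (SE), with 23.4 to 35.8 FPKM and 12.7 to 18.0 FPKM at ZT0, and 31.2 to 52.2 FPKM and 23.7 to 32.0 FPKM at ZT12. Cfd, complement factor D or adipsin, which fat cells also make, is on the list of adipocyte markers. It had −1.57 ± 0.44 (SE), with 11.4 to 42.8 FPKM with vehicle and 2.74 to 11.2 FPKM with the product at ZT12, and overlapping values at ZT0 (2.85 to 7.97 and 0.309 to 4.99 FPKM). These genes were singled out after their values were seen, and none had an adjusted p under 0.05 (limma, 0.259 to 0.336).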
